A study of Mus musculus with 47 samples.

Results

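The presynaptic vesicle release genes examined here are 41 named genes that encode vesicle proteins, SNAREs (the proteins that fuse membranes), calcium sensors, active zone proteins and vesicle recycling proteins. They are a list of gene names, drawn up with earlier results of these data known, from a table of 35486 genes, of which 17778 passed the count filter and were tested. All 41 were among those tested. Grouped by role, 6 were SNARE or SNARE disassembly genes, 7 were calcium sensors or complexins, 12 were vesicle proteins or Rab3 genes, 11 were active zone genes and 5 were recycling genes.

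RNA was sequenced from the hippocampus of 47 male C57BL/6J mice, with 1 library per mouse. The mice fell into 4 groups by age and treatment, and received either vehicle or recombinant mouse platelet factor 4 (PF4), a chemokine released by platelets, by systemic injection. Young Veh mice (n = 13) were 3.75 to 5.26 months old and Young PF4 mice (n = 12) were 4.08 to 5.03 months old. Old Veh mice (n = 12) were 17.47 to 19.97 months old and Old PF4 mice (n = 10) were 17.4 to 20.23 months old. The labels give no transgene or deletion for any group, and the tissue was whole hippocampus, so that fewer cells of a type and less RNA per cell cannot be told apart. Library numbers ran from 1 to 12 in Old Veh, from 13 to 23 in Old PF4 and from 24 to 48 in the young mice, and library order cannot be told apart from age or from treatment among the old mice.

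Depth was uneven: the libraries held 2242879 to 21112908 counts, with a median of 10374007, and 8 libraries, called shallow here, held fewer than 5000000 (4 of them Old Veh). The member with fewest reads, Sv2c, had at least 35 in every library. Levels are in CPM, a gene's count as a share of its library's total after TMM scaling. The mean log2 CPM of 10 pan-neuronal markers had group medians between 8.46 and 8.50, and dentate granule, CA1 and CA3 markers were present in every library. The median log2 fold change of 5 dentate granule markers was 0.12 with age and -0.11 with PF4 in old mice, none of them called, while it was 0.01 with age over the pan-neuronal markers, of which Map2 was called (0.21, edgeR adjusted p = 4.87e-06). With age the median log2 fold change was -0.30 over 4 thalamus markers and -0.16 over 6 striatum markers, none of them called, and 0.16 over 6 microglia markers, 1 of them called. It was 0.02 over 6 astrocyte markers, of which Aldh1l1 (-0.19) and S100b (0.24) were called. The mean log2 CPM of the thalamus markers was 6.50 in Young PF4 replicate 8, beside a group median of 4.60. The part of these tissues and cells in the members' differences was not tested. Markers of the choroid plexus, the secretory epithelium that lies against the hippocampus in the ventricle, differed widely between libraries. Their mean log2 CPM had a median of 5.07 in Young Veh, 5.44 in Young PF4, 0.91 in Old Veh and 1.30 in Old PF4, with a range of -0.13 to 6.13 over all libraries. Young Veh replicate 4 and Old PF4 replicate 8 also stood apart, with the lowest length index, the mean log2 CPM of genes with long transcripts minus that of genes with short transcripts (-0.35 and -0.23 around a mean near 0). The counts of genes called with age and with PF4 in old mice are given with and without these 2 libraries.

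Neurotransmitter is stored in synaptic vesicles and released when calcium enters the nerve terminal. The vesicle SNARE synaptobrevin (Vamp1, Vamp2) joins syntaxin (Stx1a) and Snap25 of the plasma membrane in a complex that draws the membranes together, synaptotagmins sense calcium, complexins clamp and assist the complex, and Nsf with its adaptor takes it apart again. Active zone scaffolds such as bassoon and piccolo hold vesicles and calcium channels at the release site, and dynamin, endophilin, amphiphysin and synaptojanin retrieve vesicle membrane after fusion. In the hippocampus these proteins serve both the glutamatergic principal cells and the inhibitory interneurons.

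The members spanned a wide range of levels. Per kilobase of the longest annotated transcript, the only scale on which levels of different genes are compared here, Snap25 was highest, with a median over all libraries of 521 CPM per kilobase. It was followed by Vamp2 at 481, Rab3a (the vesicle GTPase) at 384, Nsf at 320 and Syt1, the fast calcium sensor, at 317. Unc13b, which primes vesicles, stood at 2.55, Syt2 at 2.91 and Sv2c at 1.68. Among paralogs, Vamp2 stood far above Vamp1 (18.1), Unc13a (11.1) above Unc13b, Syt1 above Syt11 (146), Syt4 (55.4) and Syt7 (14.6), and Cplx1 (264) above Cplx2 (179). The order of Cplx1 and Cplx2 rests on their lengths (2189 and 4928 bases), as their CPM were 577 and 880. Which transcripts were expressed was not measured. Syn1 (196) and Syn2 (200), the vesicle-tethering synapsins, lay next to each other, well above Syn3 (16.1), and Sv2b (95.4) lay close to Sv2a (84.3).

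**Figure D1:**
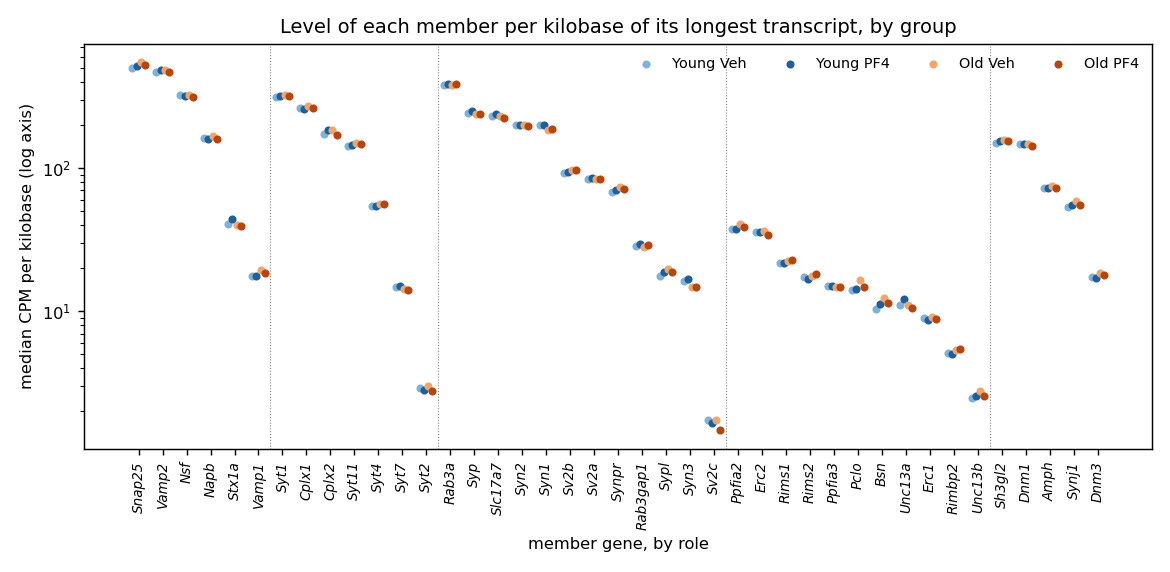
Median level of each of the 41 genes in each of the 4 groups, in CPM per kilobase of the longest transcript on a log axis, with genes ordered by role and dotted lines between roles. The 4 group medians of a gene lie almost on top of each other beside the spread between genes, which runs from Sv2c at 1.68 to Snap25 at 521 over all libraries.

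Spread between mice of 1 group also differed among members. The within-group standard deviation of log2 CPM was 0.08 for Synj1, Rab3gap1 (which acts on Rab3) and Syp (synaptophysin), and it was 0.43 for Syt2, 0.29 for Ppfia3 (liprin-α3) and 0.26 for Slc17a7, the vesicular glutamate transporter VGLUT1. Syt2 ranged from 9.59 to 28.2 CPM within Young Veh alone, and from 8.30 to 29.5 CPM within Old Veh.

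Old Veh was first compared with Young Veh, which asks how these genes differ with age in mice given vehicle. In old hippocampus 2 of the 41 genes (4.88%) passed the test, both higher: Bsn, which encodes the active zone scaffold bassoon, and Synj1, which encodes synaptojanin 1, a lipid phosphatase that takes part in the uncoating of retrieved vesicles. The edgeR quasi-likelihood test with Benjamini-Hochberg adjustment over all genes called 492 of 17778 (2.77%) at an adjusted p below 0.05, of which 2.16% of genes were higher in old and 0.607% lower. The core fusion machinery, Vamp2, Snap25, Syt1, Stx1a and Nsf, did not pass the test. No member's Old Veh values lay wholly outside its Young Veh values (0 of 41, beside 11 of all genes tested, 0.0619%).

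Bsn lies on chromosome 9 from 108096022 to 108190384 on the minus strand (GRCm38). Its level was 128 to 196 CPM in Young Veh (median 164) and 155 to 267 CPM in Old Veh (median 198). In the PF4 groups it was 126 to 194 CPM (median 179) in young and 118 to 220 CPM (median 182) in old mice. Of 12 Old Veh mice, 6 lay above every Young Veh mouse and 11 above the Young Veh median, and the groups overlapped. The fitted difference was 21.5% (log2 fold change 0.28 ± 0.08, SE; 95% interval 0.12 to 0.44; edgeR adjusted p = 0.0400). The call was lost without the 8 shallow libraries (0.26, adjusted p = 0.186), with the choroid plexus score as a covariate (0.21, adjusted p = 0.176), with the length index as a covariate (0.23, adjusted p = 0.0678), with no count filter (0.28, adjusted p = 0.0534), with the replicate number as a block (0.26, adjusted p = 0.0611) and in 13 of 47 fits that each left out 1 library.

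Synj1 lies on chromosome 16 from 90936092 to 91011308 on the minus strand. Its level was 354 to 416 CPM in Young Veh (median 379) and 385 to 443 CPM in Old Veh (median 420). Young PF4 mice ranged from 341 to 422 CPM (median 392) and Old PF4 mice from 367 to 456 CPM (median 394). All 12 Old Veh mice lay above the Young Veh median and 6 lay above every Young Veh mouse. The difference was 10.4% (log2 fold change 0.14 ± 0.03, SE; 95% interval 0.07 to 0.21; edgeR adjusted p = 0.0109), a small change in a gene with little spread. It was called in all 47 fits that left out 1 library, but not without the 8 shallow libraries (0.15, adjusted p = 0.0544) or with the choroid plexus score as a covariate (0.12, adjusted p = 0.0733). An unstranded count cannot separate Synj1 from the overlapping opposite-strand transcript 4930404I05Rik, which held 7732 reads over all libraries beside 189024 for Synj1. The same holds for Pclo (139279 reads) with Gm26918 (12670) and Gm26954 (2527), for Syt4 (105020) with Gm26658 (14710) and for Syn2 (367651) with Timp4 (38187).

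The RefSeq start regions of these genes are printed because Bsn and Synj1 are the members that passed the test. Of the 41 members, 35 had an entry in the RefSeq promoter table (GRCm38.p6), and the first listed start of each was used. Each sequence runs 5′ to 3′ on the gene's strand, from 250 bases before the start to 50 after it, and capitals mark CATGCGC on either strand, letters found in the binding motif of the factor NRF1.
Bsn, minus strand, chr9:108190334-108190633: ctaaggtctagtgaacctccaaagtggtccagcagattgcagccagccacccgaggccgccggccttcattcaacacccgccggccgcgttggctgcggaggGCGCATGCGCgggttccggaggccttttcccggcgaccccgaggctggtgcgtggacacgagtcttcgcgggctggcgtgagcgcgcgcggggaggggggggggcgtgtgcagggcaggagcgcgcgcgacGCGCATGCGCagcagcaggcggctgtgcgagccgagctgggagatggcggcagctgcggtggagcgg
Synj1, minus strand, chr16:91011259-91011558: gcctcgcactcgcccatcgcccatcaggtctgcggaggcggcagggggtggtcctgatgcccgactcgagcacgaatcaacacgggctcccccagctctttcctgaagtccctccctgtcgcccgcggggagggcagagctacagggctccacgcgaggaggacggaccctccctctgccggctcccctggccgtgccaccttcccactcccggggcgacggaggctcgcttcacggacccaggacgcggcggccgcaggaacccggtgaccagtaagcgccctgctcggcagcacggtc
Both sequences were rich in G and C (72.3% for Bsn and 71.3% for Synj1, against a median of 52.7% over 27025 promoters and 62.7% over the members). The Bsn window held CATGCGC 4 times, counting both strands, as 2 palindromic runs in which the strands overlap, and the Synj1 window did not hold it. These letters were in 4.0% of all promoters and in 2 of 35 member promoters (5.7%). Also searched on both strands were GGGCGG, the letters of a GC box, which stood in 26 of 35 member promoters (74.3%) and in 35.9% of all, TGACG, which stood in 10 of 35 and in 5681 of 27025, and TATAAA, which stood in 2.9% and 14.2%. Neither the Bsn nor the Synj1 window held any of those 3. Such matches describe letters only.

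Beyond these, Pclo, the giant scaffold piccolo and the paralog of bassoon, was at 190 to 330 CPM in Young Veh (median 282) and 266 to 398 CPM in Old Veh (median 331). Again 6 of 12 Old Veh mice lay above all Young Veh mice. Its log2 fold change of 0.21 ± 0.07 (SE) did not pass the edgeR test after adjustment (p = 0.00442, adjusted p = 0.0973). Of the 41 members, 5 had an unadjusted p below 0.05 (12.2%, against 15.2% of all genes tested).

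**Figure D2:**
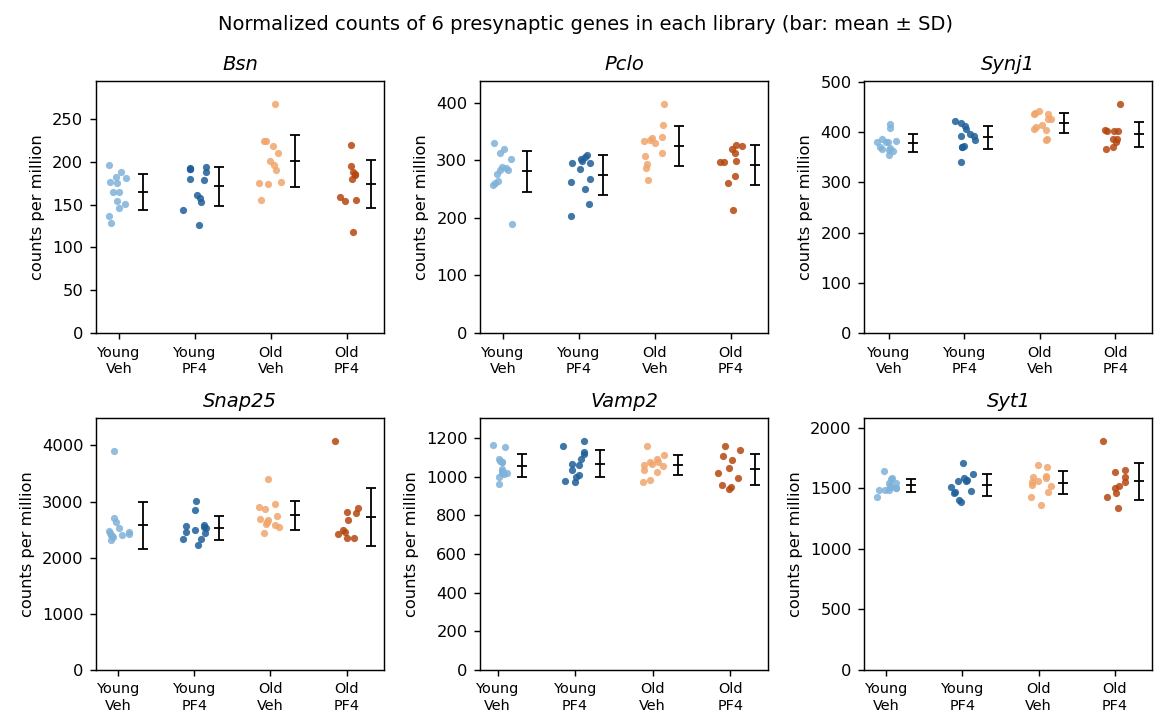
Level of 6 genes in each of the 47 libraries, in CPM on axes that start at 0, with 1 point per mouse and the group mean ± SD beside the points. Old Veh points of Bsn, Pclo and Synj1 sit above most Young Veh points, with 6 of 12 above all of them, while Vamp2 and Syt1 lie level across groups, and 2 libraries carry the high Snap25 values of 3899 and 4086 CPM.

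The precision with which a difference with age was bounded varied within the fusion machinery. Vamp2 stood at 960 to 1163 CPM in Young Veh (median 1041) and 972 to 1159 CPM in Old Veh (median 1064), a log2 fold change of 0.01 with a 95% interval of -0.07 to 0.08. Syt1 was at a median of 1511 CPM in Young Veh and 1559 CPM in Old Veh, with an interval of -0.06 to 0.10. The interval was -0.06 to 0.12 for Nsf and -0.04 to 0.13 for Napb. It was wider for Snap25 (-0.04 to 0.24), Stx1a (-0.25 to 0.02) and Vamp1 (-0.05 to 0.25). Of the 6 SNARE genes, 4 lay within ±0.25 (66.7%). For Unc13a, the main vesicle primer of forebrain synapses, the interval was -0.11 to 0.11, and its counts (54501 reads over all libraries) cannot be separated by strand from the overlapping Colgalt1 (33463 reads). Across all 41 members the 95% interval lay within ±0.25 on the log2 scale in 32 (78.0%, against 46.7% of all genes tested) and within ±0.5 in every one.

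Snap25 depended on the libraries that stand apart. It was at 2310 to 3899 CPM in Young Veh (median 2438) and 2447 to 3401 CPM in Old Veh (median 2679), and its log2 fold change was 0.10 ± 0.07 (SE; edgeR adjusted p = 0.532). Without Young Veh replicate 4 and Old PF4 replicate 8 it was 0.16 ± 0.05 (adjusted p = 0.0256), and Ppfia2 (liprin-α2) was 0.18 ± 0.05 (adjusted p = 0.0235). In that fit 4 members were called, Bsn, Synj1, Snap25 and Ppfia2, all higher in old, among 807 genes called in all (4.55%).

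By role, the active zone genes had the largest median difference with age, 0.09 over 11 genes, and 10 of the 11 were above 0. Of these, Bsn, Pclo, Unc13a, Unc13b, Erc1 and Ppfia2 have transcripts over 8000 bases. All genes tested of that length had a median of 0.07, and the part of length in the active zone value was not tested. The median was 0.05 over the 5 recycling genes, 0.04 over the 6 SNARE genes and the 7 calcium sensors and complexins, and 0.02 over the 12 vesicle proteins. Over all 41 members it was 0.04, beside -0.01 over all genes tested, and 35 members (85.4%) were above 0, beside 45.3% of all genes. This count depended on the fit. With the choroid plexus score as a covariate 20 members (48.8%) were above 0, beside 46% of all genes, and the median of the members was -0.00. It was 28 (68.3%, against 49.6%) with the length index as a covariate and 29 (70.7%, against 49.7%) without Young Veh replicate 4 and Old PF4 replicate 8. Of the 41 members, 16 changed sign under at least 1 of 11 alternatives, Cplx1 and Unc13a under 7 each. The 6 members below 0 were Syn3 (-0.12), Stx1a (-0.12), Syn1 (-0.10), Syp (-0.04), Ppfia3 (-0.02) and Rab3gap1 (-0.02), and none of them passed the test.

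**Figure D3:**
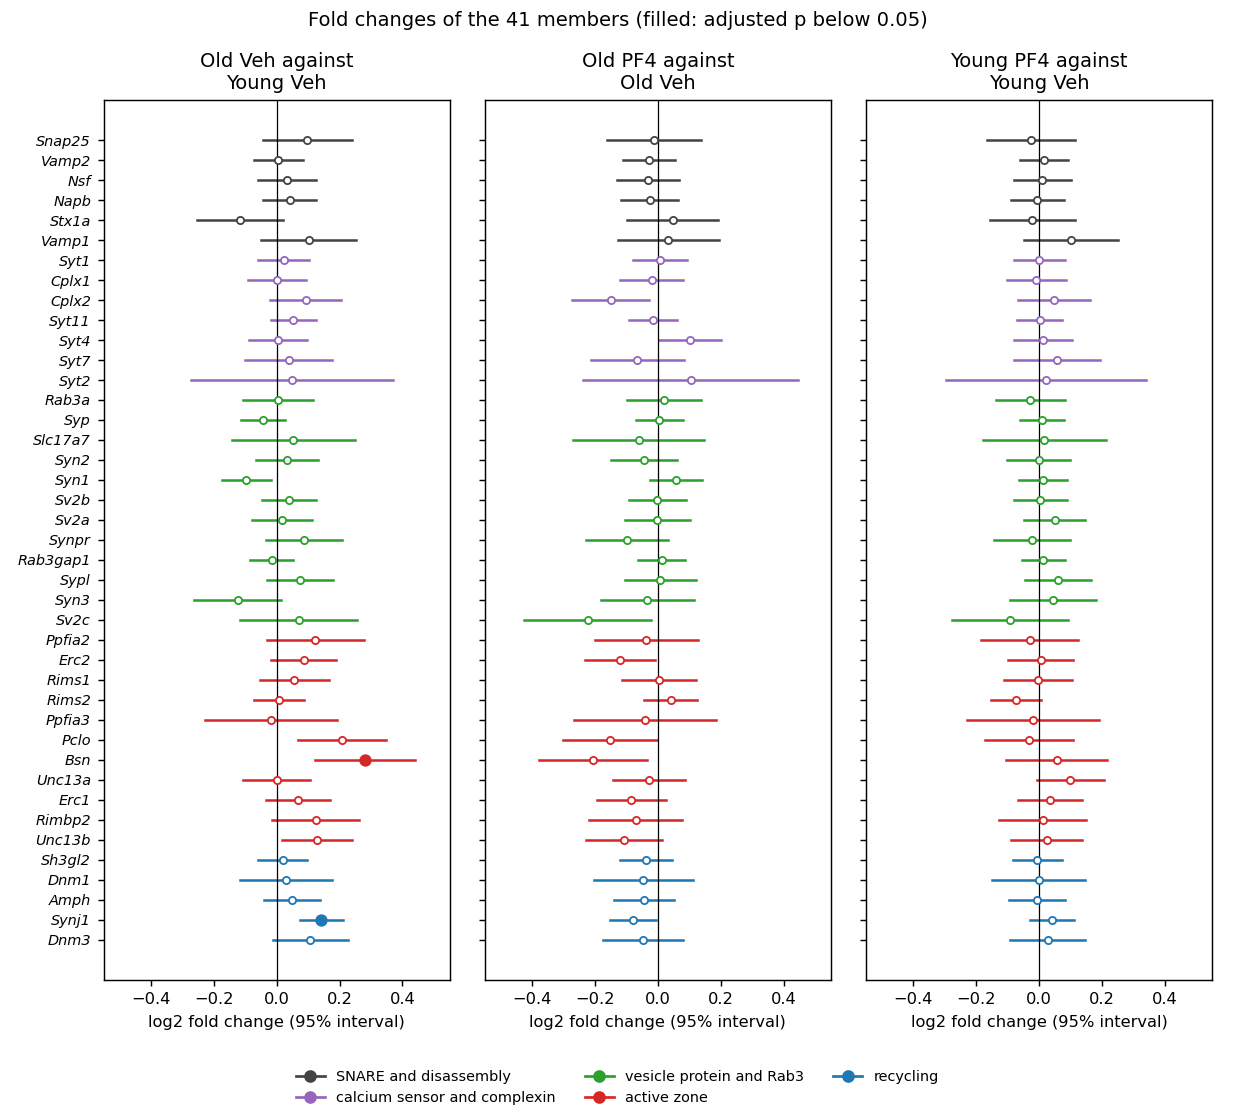
Log2 fold change with its 95% interval for each of the 41 genes in 3 comparisons, coloured by role and ordered within a role by level, with filled points for an edgeR adjusted p below 0.05. The filled points are Bsn (0.28) and Synj1 (0.14) with age, and there is none in either PF4 comparison.

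Other genes of the presynaptic terminal were read beside the members. Of 94 further listed genes (other SNARE regulators, synaptotagmins, vesicle ATPase subunits, endocytic adaptors, calcium channel subunits and neurexins), 92 were tested and 4 (4.35%) were called with age by edgeR. The endocytic scaffold gene Itsn2 (0.17), the calcium channel subunit gene Cacna2d1 (0.16) and the syntaxin-binding tomosyn gene Stxbp5l (0.22) were higher in old, and Doc2a, a calcium sensor gene of spontaneous release, was lower (-0.28). Over all 92 genes tested from this list the median was -0.01, and 42 (45.7%) were above 0.

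The fold changes of the members went with transcript length, which the choice of genes did not use. Over the 41 genes the correlation of the age log2 fold change with log2 transcript length was 0.70, and it was 0.57 over 39 genes without Bsn (15938 bases) and Pclo (20084 bases). Over 17666 genes with a length it was 0.10. The direction was not confined to the members. Members under 3000 bases had a median age log2 fold change of 0.00 and those over 8000 bases 0.12. All genes tested of those lengths had medians of -0.03 and 0.07. These correlations are across genes, which share libraries and are not independent replicates, and they describe these libraries only. The length index of the libraries, computed without the members, had a mean of -0.02 in Young Veh, 0.04 in Old Veh and -0.02 in Old PF4. With it as a covariate the age difference was 0.13 for Synj1 (edgeR adjusted p = 0.0146), and Snap25 (0.19, adjusted p = 0.0159) and Ppfia2 (0.21, adjusted p = 0.0225) were called as well, in a fit that called 5.06% of all genes.

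**Figure D4:**
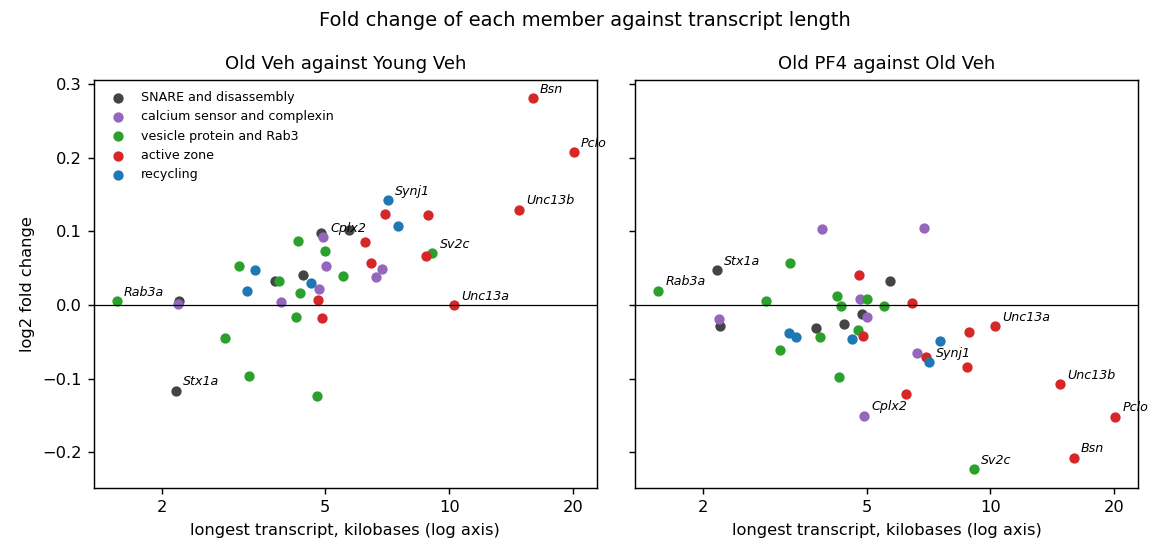
Log2 fold change of each of the 41 genes against the length of its longest transcript in kilobases (log axis), with age on the left and PF4 in old mice on the right, coloured by role. Both comparisons contain the Old Veh libraries, so the panels are not independent. The correlation across genes is 0.70 on the left and -0.54 on the right, and Bsn and Pclo lie at the far end of each.

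Old PF4 was compared with Old Veh, the comparison that asks what PF4 does in the aged hippocampus. None of the 41 genes passed the edgeR test (0 of 41, against 6 of all genes tested, 0.0337%). DESeq2 called 0 of 41 as well, beside 24 of all genes (0.135%). At an unadjusted p below 0.05 there were 7 (17.1%, against 6.20% of all genes), of which Cplx2, Bsn, Sv2c, Erc2, Synj1 and Pclo were lower and Syt4 was higher in Old PF4. The lowest adjusted p among the members was 0.677. Without Old PF4 replicate 8 and Young Veh replicate 4, 3 members had an unadjusted p below 0.05 (7.32%, against 7.82% of all genes), namely Ppfia2 (-0.15), Synpr (-0.15) and Cplx2 (-0.13), all lower in Old PF4, with edgeR adjusted p of 0.402, 0.446 and 0.615. In that fit Sv2c (-0.19), Bsn (-0.15), Erc2 (-0.11), Pclo (-0.11) and Synj1 (-0.07) stayed lower, with unadjusted edgeR p of 0.0527 to 0.0977. Syt4 stayed higher (0.06, unadjusted edgeR p = 0.146). Syt4 was at 0.10 with all libraries and at 0.06 without Old PF4 replicate 8, in which it was highest (298 CPM, beside 205 to 243 CPM in the others).

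Cplx2, which encodes complexin 2, had the smallest p. Its level was 817 to 1082 CPM in Old Veh (median 906) and 716 to 926 CPM in Old PF4 (median 836), beside a Young Veh median of 850. Of 10 Old PF4 mice, 9 lay below the Old Veh median and 4 below every Old Veh mouse. The log2 fold change was -0.15 ± 0.06 (SE; p = 0.0166, edgeR adjusted p = 0.677).

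Sv2c, a vesicle glycoprotein gene at low level in these samples, was at 12.7 to 21.8 CPM in Old Veh (median 15.8) and 11.8 to 18.3 CPM in Old PF4 (median 13.5), with a log2 fold change of -0.22 ± 0.10 (SE). Bsn was at -0.21 ± 0.09 and Synj1 at -0.08 ± 0.04 (SE), with edgeR adjusted p of 0.694 and 0.788. Of 10 Old PF4 mice, 9 lay below the Old Veh median for Bsn and Synj1 and all 10 for Pclo. These values share the Old Veh libraries with the age comparison, where Bsn, Synj1 and Pclo were at 0.28, 0.14 and 0.21, and a high or low Old Veh group moves both in opposite directions.

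Over the 41 members the median was -0.03 (all genes tested, 0.01), with 29 below 0 and 12 above. The number above 0 was 10 to 19 over 11 alternatives, highest with the length index as a covariate, and 16 members changed sign under at least 1 of them. The 95% interval lay within ±0.25 in 34 (82.9%, against 47.3% of all genes and 79.3% of the other presynaptic genes). For the fusion core it was -0.11 to 0.05 for Vamp2, -0.08 to 0.09 for Syt1 and -0.13 to 0.07 for Nsf. The correlation of log2 fold change with log2 transcript length was -0.54 across the 41 genes and -0.39 without Bsn and Pclo, beside -0.13 over all genes with a length. Members under 3000 bases had a median of 0.01 and those over 8000 bases -0.11, beside 0.03 and -0.05 over all genes tested of those lengths.

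Young PF4 was compared with Young Veh to see what PF4 does in young adult hippocampus. No member passed the edgeR test (0 of 41) and none had an unadjusted p below 0.05, beside 0 genes called (0%) and 213 at that p among all genes tested, and DESeq2 called no member. The smallest p belonged to Unc13a, at 93.8 to 124 CPM in Young Veh (median 113) and 99.9 to 137 CPM in Young PF4 (median 124). Its log2 fold change was 0.10 ± 0.05 (SE; edgeR adjusted p = 1.00). Next was Rims2, which links Rab3 to the active zone, at a median of 83.3 CPM in Young Veh (highest 98.9) and 81.1 CPM in Young PF4 (highest 87.7), with a log2 fold change of -0.07 ± 0.04 (SE). Vamp1, at 66.0 to 127 CPM and 93.2 to 140 CPM, had a fitted change of 0.10 ± 0.07 (SE) although both medians were 101 CPM, and the highest value was that of Young PF4 replicate 8, the library highest in thalamus markers. For each of these genes the values of the 2 groups overlapped. In 38 of the 41 members (92.7%) the 95% interval lay within ±0.25, beside 58.2% of all genes and 85.9% of the other presynaptic genes.

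The difference between the PF4 effects in old and young mice was tested with an interaction contrast. No member was called by edgeR (0 of 41, as among all genes, 0%) or by DESeq2. At an unadjusted p below 0.05 there were 3, Cplx2 (-0.20 ± 0.08, SE), Synj1 (-0.12 ± 0.05) and Bsn (-0.26 ± 0.12), 7.32% of the members beside 3.98% (707) of all genes. The interval of the difference reached from -0.50 to -0.03 for Bsn. It lay within ±0.5 for 40 of the 41 members (97.6%, against 69.7% of all genes and 93.5% of the other presynaptic genes).

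The choroid plexus score varied within groups as well as between ages, and its coefficient was tested in the edgeR fit with the 4 groups, a test added after the data were seen. For 10 of the 41 members (24.4%) the level changed with the score, 2 upward and 8 downward, beside 8.59% of all genes tested (7.06% upward and 1.54% downward). Downward were Stx1a, Vamp2, Napb (the neuronal adaptor of Nsf), Syt1, Cplx1, Syn1, Syn2 and Sh3gl2 (endophilin A1), at -0.05 to -0.08 per standard deviation of the score. Upward were Syn3 (0.14 ± 0.02, SE; edgeR adjusted p = 8.70e-08) and Sypl, the synaptophysin-like gene that is also expressed outside neurons (0.08 ± 0.02; adjusted p = 0.000892).

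Syn3 hosts Timp3, a metalloproteinase inhibitor gene whose exons overlap it on the opposite strand, and Timp3 rose with the score too (0.24 ± 0.02 per standard deviation, SE; edgeR adjusted p = 3.21e-11). Over all libraries Timp3 held 81610 reads and Syn3 36541, and an unstranded count cannot separate reads of shared exons. With the score as a covariate in the age comparison, Syn1 was the only member called (-0.14 ± 0.04, SE; edgeR adjusted p = 0.0311). Syn1 held 310302 reads over all libraries beside 122841 for Araf, whose exons overlap it on the opposite strand, so that its value has the same limit. Without the covariate it was at 589 to 709 CPM in Young Veh (median 654) and 557 to 714 CPM in Old Veh (median 606), with adjusted p = 0.194. The score differed between the ages, and its part in the age differences was not tested further.

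Across the 47 libraries, with group means removed, levels of many members varied together. Of 820 pairs, 298 correlated positively and 132 negatively at a Benjamini-Hochberg adjusted permutation p below 0.05 (100000 permutations within groups, two-sided, smallest possible p 1e-05). An r of at least 0.5 was reached by 22.2% of these pairs and an r of -0.5 or lower by 5.98%, beside 7.45% and 6.57% of all pairs among the 9451 genes with a median level no lower than that of the lowest member. That limit was the 15.3 CPM of Sv2c, while Snap25 was at 2543 CPM. The 9451 genes were matched to the members neither in level nor in cell type, so the shares are not like for like. The closest pair was Slc17a7 with Dnm1, the neuronal dynamin that cuts vesicles from the membrane (r = 0.96, rho = 0.95, both with permutation p = 1e-05). Without the 2 libraries farthest from the median of Slc17a7, r was 0.94, and it was 0.94 in the young and 0.97 in the old mice.

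Around this pair lay Bsn (r = 0.90 with Dnm1, rho = 0.86), Pclo (r = 0.86 with Bsn, rho = 0.81), Ppfia3 and Rims1, as well as Nsf, Napb, Syn2 and Amph. Snap25, Rab3a, Syt1, Syt11, Syt4, Ppfia2 and Synpr formed another set, with r = 0.89 for Snap25 with Rab3a (rho = 0.76, r = 0.78 without the 2 libraries farthest in Snap25). Each of these correlations had a permutation p of 1e-05 (adjusted 7.52e-05 for r and 0.000101 for rho).

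Some pairs between the sets correlated negatively, and part of this rested on few libraries. Snap25 with Ppfia3 had r = -0.78 (permutation p = 1e-05, adjusted 7.52e-05) but rho = -0.32 (adjusted permutation p = 0.0851), and r = -0.50 without the 2 libraries farthest in Snap25. Over the 41 members the correlation with the length index had a median r of 0.25, and 18 members were positive and 7 negative past the threshold. Snap25 was the most negative (r = -0.73, rho = -0.42, and r = -0.49 without 2 libraries; adjusted permutation p = 0.000205 and 0.0368), and the part of length in these sets was not tested.

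Vamp1 and Syt2, the synaptobrevin and synaptotagmin known from fast-spiking interneurons and from hindbrain synapses, went together (r = 0.77, rho = 0.81, r = 0.74 without 2 libraries; permutation p = 1e-05). Both went against Synpr, synaptoporin, which is known from mossy fibre terminals (Vamp1, r = -0.69, rho = -0.61; Syt2, r = -0.67, rho = -0.66; permutation p = 1e-05 for each). For Syt2 with Synpr r was -0.68 without the 2 libraries farthest in Syt2, -0.83 in the young and -0.54 in the old mice. Without Young Veh replicate 4 and Old PF4 replicate 8 (45 libraries), r was 0.73 for Vamp1 with Syt2, -0.62 for Vamp1 with Synpr and -0.63 for Syt2 with Synpr, while it was -0.46 for Snap25 with Ppfia3. Without Young PF4 replicate 8, the library highest in thalamus markers, the r of the same 3 pairs was 0.78, -0.67 and -0.66. Vamp2 and Syp, abundant at nearly all terminals, also went together (r = 0.82, rho = 0.83, permutation p = 1e-05), and Syp (336134 reads over all libraries) overlaps the opposite-strand Gm14703 (134885 reads).

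**Figure D5:**
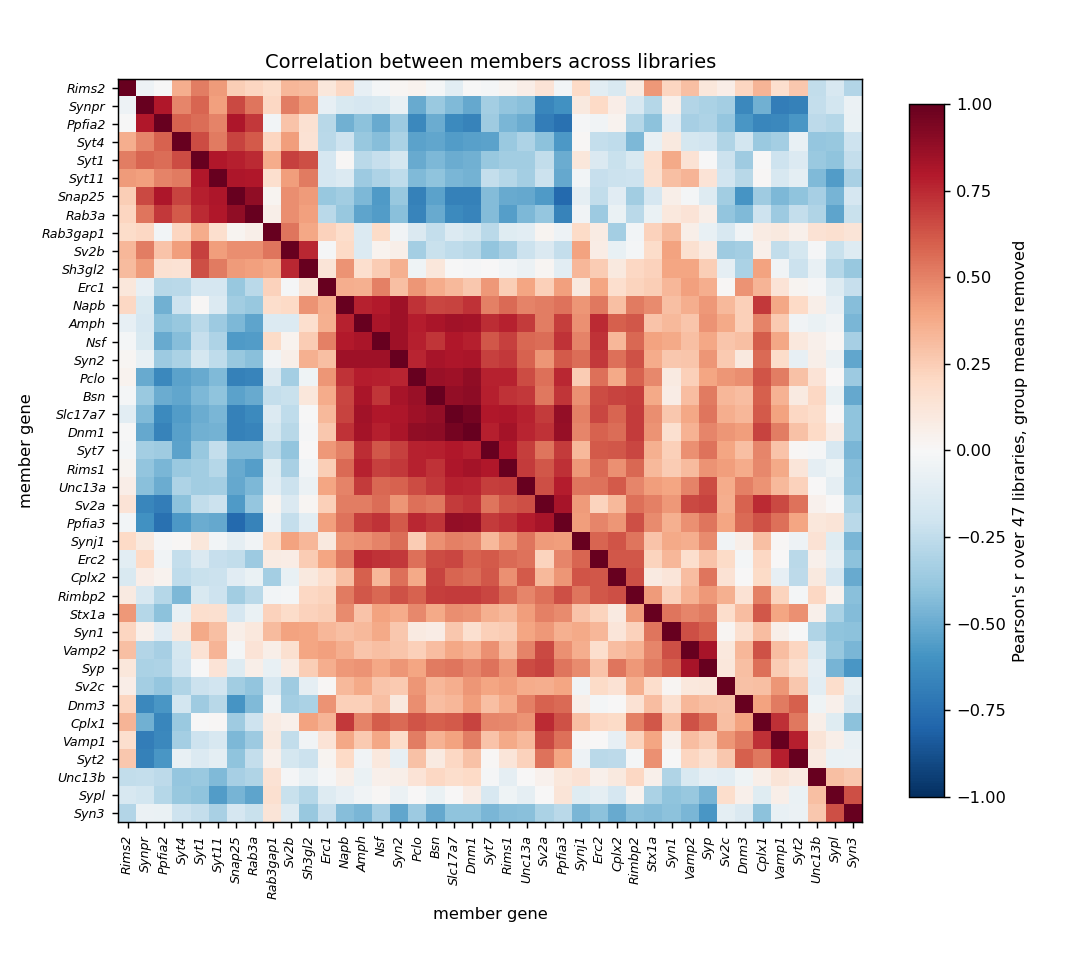
Pearson's r between each pair of the 41 genes over 47 libraries with group means removed, from -1 (blue) to 1 (red), with genes ordered by average-linkage clustering. The red block in the middle holds Slc17a7, Dnm1, Bsn and Pclo (r = 0.96 for Slc17a7 with Dnm1), and the red block at the upper left holds Snap25, Rab3a, Syt1 and Syt11, with negative r between them.

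The members other than Bsn and Synj1 did not pass the test with age or with PF4. The log2 fold changes with age were 0.04 for Napb, 0.03 for Nsf and Syn2, 0.05 for Syt11, Syt2 and Amph, 0.04 for Syt7 and Sv2b, 0.00 for Syt4 and Cplx1, 0.09 for Synpr and Erc2, 0.12 for Rimbp2, 0.11 for Dnm3 and 0.02 for Sv2a and Sh3gl2. Dnm1 was at 0.03, Slc17a7 at 0.05, Rab3a at 0.01, Rims1 at 0.06, Rims2 at 0.01, Erc1 at 0.07, Sypl at 0.07, Vamp1 at 0.10, Cplx2 at 0.09, Unc13b at 0.13 and Sv2c at 0.07. The 95% interval of each of these included 0 except that of Unc13b, which was 0.02 to 0.24 (p = 0.0244, edgeR adjusted p = 0.233).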

How the data were processed

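Hippocampal RNA of 47 mice was analysed, with age and treatment taken from the labels. The cDNA was made by Smart-Seq2, which does not mark strand. The values deposited by the authors are read counts for each gene as counted, not normalized. The submitters' processing notes name Trim Galore 0.3.7, STAR 2.5.3a, the GRCm38 genome and DESeq2. The counter and annotation are not given in the sources used here. Each library came from a separate mouse, and no 2 libraries agreed within sampling noise.

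In edgeR 4.0.16 (R 4.3.3) the 4 groups were fitted together by quasi-likelihood, with TMM factors, the filterByExpr filter and Benjamini-Hochberg adjustment over 17778 genes. DESeq2 1.42.0, the study's own tool, was run as an alternative. Standard errors were derived from the log2 fold change and its F statistic. A prior count of 2 was added for log2 CPM. The fit was tested on simulated data. Transcript lengths and loci came from GENCODE M21 (GRCm38). The length index contrasts genes of at least 4594 bases with genes of at most 2006 bases, and the choroid plexus score is the mean over 10 markers.

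The members and all lists were chosen with earlier results of these data known. Values were given for members called in any comparison and for the 3 of smallest p in each. Other members were given by level, range or fold change, and those described under correlation, the choroid plexus score or left-out libraries were chosen after their values were seen. Other size factors, filters, covariates, a replicate block, groups fitted alone, left-out libraries and DESeq2 were tried. Deviations of same-numbered mice were correlated, without differently numbered mice as a reference.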

Additional observations from a re-analysis of the deposited data

Results flagged for a closer look

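In a group of 4 to 10 samples a value was marked when the highest or lowest library stood apart from the rest by a gap larger than Dixon's limit for 10 libraries. Only Old PF4 is of that size, and chance marks about 1 in 20 such groups. Old PF4 replicate 8, which has 12380047 counts and the second lowest length index, gave 5 of the 7 marked values. Its Snap25 was 4086 CPM beside 2344 to 2876 in the other 9 mice, Syt4 was 298 beside 205 to 243, Rab3a was 822 beside 561 to 665 and Ppfia2 was 607 beside 308 to 390. Its Ppfia3 was low, at 32.7 CPM beside 60.6 to 81.1. Synj1 was high in replicate 5, at 456 CPM beside 367 to 405, and Sh3gl2 was low in replicate 11, at 389 CPM beside 461 to 533. Without Old PF4 replicate 8 and Young Veh replicate 4 no member was called by edgeR for PF4 in old mice, and 3 had an unadjusted p below 0.05 (7.32%, against 7.82% of all genes tested).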

How the results depend on the processing

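The age count of 2 members stayed at 2 with DESeq2 (3.58% of all genes called), with its size factors (2.81%), with a stricter filter (2.84%), with the groups alone (2.72%) and with shallow libraries as a covariate (2.04%), and was 3 with the length index as a covariate (5.06% of all genes called). It was 1 without a filter (Synj1; 1.45% of all genes called), 1 with the replicate block (Synj1; Bsn 0.26, edgeR adjusted p = 0.0611; 2.55%), 1 with the choroid plexus score as a covariate (Syn1; 2.02%), 0 without the 8 libraries under 5000000 counts (0.975%, with 4 members or 9.76% at an unadjusted p below 0.05, against 12.3% of all genes), and 4 without the 2 libraries of lowest length index (4.55%), an alternative chosen after seeing the data. Leaving out each library gave 1 to 2, with 356 to 606 genes called in all. Bsn was lost without Old Veh replicates 1, 2, 3, 5, 6, 7 and 8 and without Young Veh replicates 3, 4, 5, 8, 9 and 13, with log2 fold changes of 0.24 to 0.31 over all 47 fits. Why these calls moved was not tested. In the other 3 comparisons the count of members was 0 under every alternative. Of 693 recomputed values for 12 named differences none changed sign, and 20 lost a call. These differences were chosen for their small p in the same data, which favours a stable sign. Only Bsn and Synj1 with age had a call to lose, so 693 is not the number of values at which a call could be lost. Other members did change sign under at least 1 alternative: 16 of 41 with age, 16 with PF4 in old and 19 in young mice, and 17 for the difference between the PF4 effects. Replicate numbers did not pair the mice in a regular way. In their deviations 5 of 10 same-numbered old mice, 4 of 12 young mice and 3 of 12 vehicle mice correlated above 0.1. The median r was 0.11, -0.08 and -0.001. Differently numbered mice were not compared, so this check cannot exclude pairing. Depth was lowest for Sv2c, with as few as 35 reads in a library.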
